A study of Mus musculus with 2 samples.

Results

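Collagen genes, the genes whose symbols read Col, a number, a and a number, make up 44 of the 21887 protein-coding genes on the mouse chromosomes in the RefSeq table used here (GRCm38.p6, the build called mm10). Each was described by the accessible sites around it in an assay for transposase-accessible chromatin (ATAC-seq), in which the Tn5 enzyme inserts sequencing adapters into open DNA. An accessible site was counted for a collagen gene when its summit, the base of highest read pileup, lay inside the gene, or within 100 kb of it with that gene's end as the nearest protein-coding gene end. By this rule 443 summits belonged to collagen genes, once 15 summits of a very deep interval beside Col19a1 were kept apart.

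The material was spinal motor neurons of C57/Bl6 mouse embryos at embryonic day 10.5, sorted by flow cytometry for green fluorescence from the Hb9::GFP reporter. Regulatory DNA of Hb9, a homeobox gene now called Mnx1 that marks motor neurons, drives the reporter, so the sort keeps the cells in which the reporter is on. There were 2 replicates of this group, no other group, and 1 list of peaks called on both together. The sources used here do not say how many embryos were pooled or whether the replicates came from separate litters, so no value below has a replicate error and no comparison below is a test.

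Collagens are triple-helical proteins of the extracellular matrix. The fibrillar types form the cables of connective tissue, type IV forms the sheet of basement membranes, the FACIT types sit on the surface of fibrils, and the transmembrane types are anchored in the cell that makes them. Most fibrillar collagen is made by mesenchymal cells, while some transmembrane types are made by neurons. The transmembrane chain encoded by Col25a1 is needed for motor axons to innervate muscle in the mouse. Which cells must make it for that is not shown by the data used here.

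Each summit in the list, called an entry below, has a fold over a local background and a significance, both the authors' values from their peak caller. The reads at the summit were recovered from these values, so a count of reads with its 95% Poisson interval stands beside the main folds, and the interval covers counting error only. Whether the caller piled up reads, fragments or cut sites is not given in its deposited output, so a read below is 1 unit of that pileup. The smallest pileup in the list was 11 reads, the genome-wide background was 5.37 reads, and the median entry had 24 reads. A gene with no entry lies below the caller's limit and was not shown to be closed. In sorted cells analysed in bulk, a site open in fewer cells and a site less open in each cell cannot be told apart.

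The promoters of the genes on which the results turn are shown here, so that the accessible and the unlisted starts can be compared by sequence. Each is 300 bases long, from RefSeq on GRCm38.p6, running 5′ to 3′ along the gene's strand from 250 bases before the start to 50 after it. Capitals mark matches, on either strand, to fixed motifs. These are GGGCGG, the GC box bound by Sp1-like factors, the CCAAT box and the TATA motif TATAAA. The others are the homeodomain core TAATTA, the palindromic EBF site and the Sox-type core ACAAAG. A match on the other strand appears as the reverse complement. The first 3 are the starts with the highest gene-end folds, Col25a1 (chr3:130180595-130180894, plus strand), Col11a1 (chr3:114030290-114030589, plus) and Col23a1 (chr11:51289670-51289969, plus).
Col25a1: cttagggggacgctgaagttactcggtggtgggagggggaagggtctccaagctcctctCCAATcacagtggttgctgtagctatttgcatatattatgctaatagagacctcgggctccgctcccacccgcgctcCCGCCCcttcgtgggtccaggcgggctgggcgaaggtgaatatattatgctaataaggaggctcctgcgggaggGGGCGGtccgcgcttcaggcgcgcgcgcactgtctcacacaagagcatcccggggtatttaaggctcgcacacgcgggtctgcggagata
Col11a1: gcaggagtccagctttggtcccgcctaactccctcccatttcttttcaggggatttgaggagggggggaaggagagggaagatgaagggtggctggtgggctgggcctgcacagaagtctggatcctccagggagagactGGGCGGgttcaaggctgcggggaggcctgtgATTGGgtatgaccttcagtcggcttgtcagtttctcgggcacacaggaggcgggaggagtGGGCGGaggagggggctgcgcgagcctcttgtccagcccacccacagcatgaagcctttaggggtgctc
Col23a1: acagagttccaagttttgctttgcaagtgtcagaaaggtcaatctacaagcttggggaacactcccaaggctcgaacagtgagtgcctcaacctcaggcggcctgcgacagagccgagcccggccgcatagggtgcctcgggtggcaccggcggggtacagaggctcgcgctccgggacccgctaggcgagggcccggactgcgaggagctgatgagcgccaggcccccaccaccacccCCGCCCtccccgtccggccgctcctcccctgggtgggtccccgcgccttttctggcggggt

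The next are Col4a1 (chr8:11312777-11313076, minus strand) and Col4a2 (chr8:11312555-11312854, plus), which start next to each other in opposite directions and share 1 accessible interval.
Col4a1: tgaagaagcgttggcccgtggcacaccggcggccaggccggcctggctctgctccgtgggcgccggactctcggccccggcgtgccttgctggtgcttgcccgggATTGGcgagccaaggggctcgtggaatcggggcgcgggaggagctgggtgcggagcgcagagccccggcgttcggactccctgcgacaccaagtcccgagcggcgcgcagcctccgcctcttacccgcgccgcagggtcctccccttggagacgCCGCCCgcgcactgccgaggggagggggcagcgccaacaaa
Col4a2: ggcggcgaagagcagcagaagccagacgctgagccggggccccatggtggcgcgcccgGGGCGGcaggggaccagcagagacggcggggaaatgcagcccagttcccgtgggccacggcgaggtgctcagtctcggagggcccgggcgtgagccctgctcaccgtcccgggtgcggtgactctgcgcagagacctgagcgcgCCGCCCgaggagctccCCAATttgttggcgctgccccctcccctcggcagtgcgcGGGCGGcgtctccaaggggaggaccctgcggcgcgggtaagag

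The last 3 set Col6a2 (chr10:76623355-76623654, minus strand), the type VI gene with an accessible start, beside Col6a1 (chr10:76725995-76726294, minus) and Col3a1 (chr1:45311288-45311587, plus), whose starts had no entry.
Col6a2: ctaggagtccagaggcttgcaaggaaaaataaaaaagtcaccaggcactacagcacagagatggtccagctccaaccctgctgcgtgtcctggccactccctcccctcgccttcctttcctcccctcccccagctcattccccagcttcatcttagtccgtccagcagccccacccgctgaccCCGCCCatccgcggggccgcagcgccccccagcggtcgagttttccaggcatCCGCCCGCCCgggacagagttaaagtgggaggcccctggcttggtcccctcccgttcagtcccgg
Col6a1: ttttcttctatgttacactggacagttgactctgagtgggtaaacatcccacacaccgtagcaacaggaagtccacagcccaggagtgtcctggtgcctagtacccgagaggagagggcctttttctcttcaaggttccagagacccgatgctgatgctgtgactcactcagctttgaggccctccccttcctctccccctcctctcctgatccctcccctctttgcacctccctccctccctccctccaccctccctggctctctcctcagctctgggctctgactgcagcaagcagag
Col3a1: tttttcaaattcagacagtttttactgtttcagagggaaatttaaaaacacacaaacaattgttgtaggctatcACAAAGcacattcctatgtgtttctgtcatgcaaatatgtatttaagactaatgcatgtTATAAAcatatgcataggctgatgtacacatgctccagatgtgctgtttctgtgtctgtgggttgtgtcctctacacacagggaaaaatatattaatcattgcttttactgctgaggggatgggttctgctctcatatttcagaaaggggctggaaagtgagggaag

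Every one of the 44 collagen genes had at least 1 entry, against 83.0% of all protein-coding genes, and 42 had an entry inside the gene, against 69.0%. Col10a1, a collagen of hypertrophic cartilage, and Col6a1, a chain of type VI collagen, had entries in their flanks only. The single entry of Col10a1 had a q-value above 0.05 and lay inside another gene, so 43 genes kept an entry when either kind was left out, and 41 kept one above the median significance of the list. An entry within 1 kb of either gene end was found for 32 of 44 (72.7%), against 65.5% of all genes (14341 of 21887), a share near the background. Among genes with spans of 35.5 to 144.5 kb, the middle range of the collagen genes, the share was 68.2% of 22 collagen genes and 77.7% of 5045 other genes. The 12 genes without one were Col3a1, Col10a1, Col9a1, Col20a1, Col22a1, Col17a1, Col28a1, Col6a1, Col6a3, Col6a4, Col6a5 and Col6a6. For the 35 collagen genes with a start in the RefSeq promoter table, 24 had an entry within 1 kb of it (68.6%), beside 66.5% of the 17492 protein-coding genes with such a start.

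The 443 entries lay in 353 separate intervals. Inside the genes were 348 of them, and 95 were in flanks only. Of the entries, 15 were counted for 2 collagen genes that adjoin each other. The median collagen gene had 9 entries (quartiles 4.75 and 16), against 3 (1 and 7) for all genes, and 4 collagen genes had 20 or more, beside 5.31% of all genes. Collagen genes are long, with a median span of 114 kb against 17.2 kb. Per 100 kb of summed span they held 6.41 entries inside, and all genes held 7.16. The order depended on the counting. With 1 entry per interval the densities were 5.13 and 5.14, and the medians of the densities of single genes were 6.24 and 5.70. In the same middle range of spans, the median was 9.5 entries in 22 collagen genes and 6 in 5045 other genes, and the medians inside the gene were 5 and 4. The part of gene length in the entry counts was not tested.

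**Figure D1:**
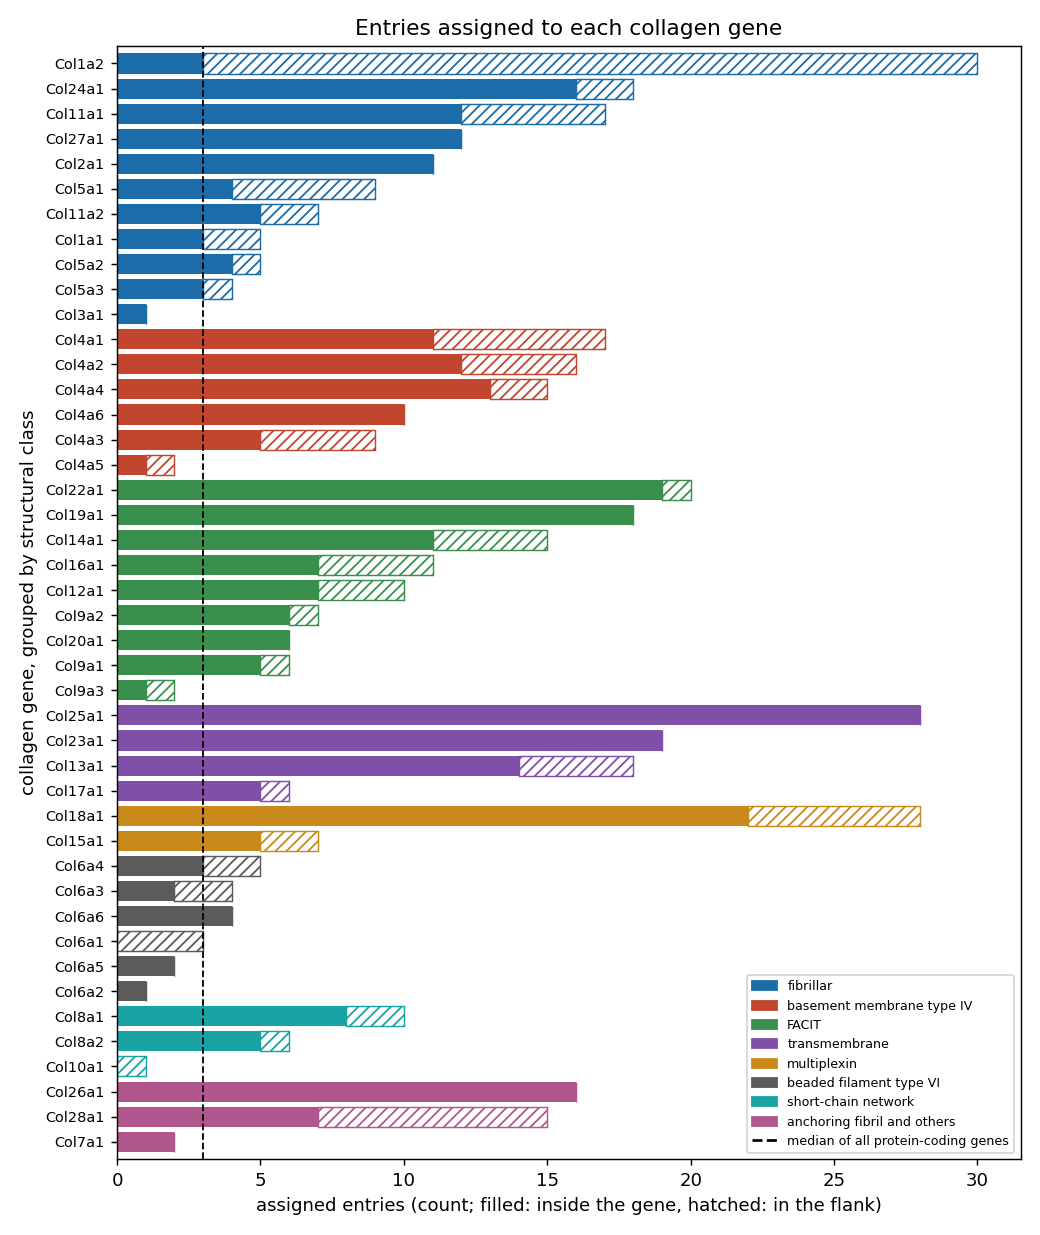
Number of entries (x axis, count) assigned to each of the 44 collagen genes (y axis), coloured by structural class, with filled bars for entries inside the gene, hatched bars for entries in the flanks and a dashed line at the median of all protein-coding genes, 3. Col1a2 leads with 30 entries, 27 of them hatched, while Col25a1 and Col23a1 have filled bars only and the 6 type VI genes hold 1 to 5 entries each.

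**Figure D2:**
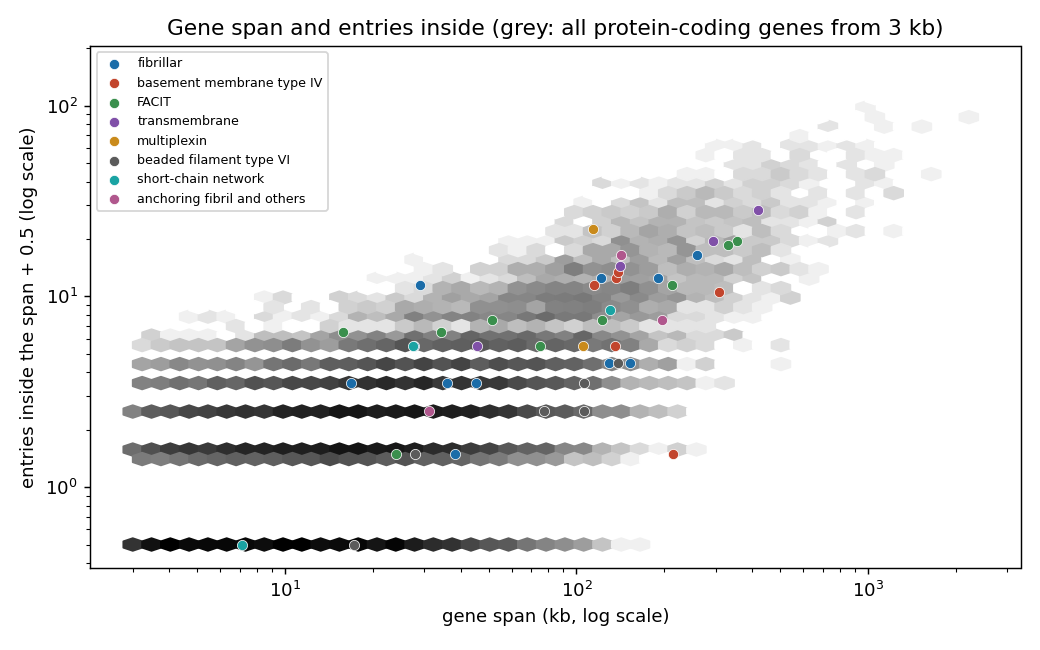
Entries inside each gene plus 0.5 (y axis, log scale) against gene span in kb (x axis, log scale), with the 44 collagen genes as coloured points by class and all protein-coding genes of at least 3 kb as grey hexagons, darker where genes are more numerous. The collagen points lie within the grey cloud, with Col18a1 (22 entries in 114 kb) near its upper edge and Col4a5 (1 entry in 214 kb) near its lower edge.

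Among genes with a gene-end entry, the highest such entry was lower in collagen genes than in all genes, in fold and in reads. Only 1 collagen gene of known start had an entry within 1 kb of its 3′ end, so for those genes the values mostly describe starts. The highest gene-end entry had a median fold of 4.37 over 32 collagen genes (quartiles 3.77 and 6.08) and 8.17 over 14341 genes (5.62 and 10.3). The reads at these summits had medians of 40.5 and 97, and the local backgrounds were 7.34 and 10.7 reads. Only 4 collagen genes, Col25a1, Col11a1, Col23a1 and Col6a2, exceeded the all-gene median fold, and 2 of these also exceeded the all-gene median reads. A gene-end entry of 8-fold or more was found in the same 4 of 44 genes, beside 34.1% of all genes. The gap was also present among genes of similar span, where the median gene-end fold was 3.98 (15 collagen genes) against 9.02 (3919 genes). Restricting to known starts gave medians of 5.55 (24 genes) and 8.47 (11640 genes), with 51 and 102 reads. Away from gene ends the entries were alike. The median fold was 2.83 with 19 reads over 384 collagen entries. It was 2.98 with 21 reads over 112556 entries of the list, whether or not they were assigned to a gene.

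**Figure D3:**
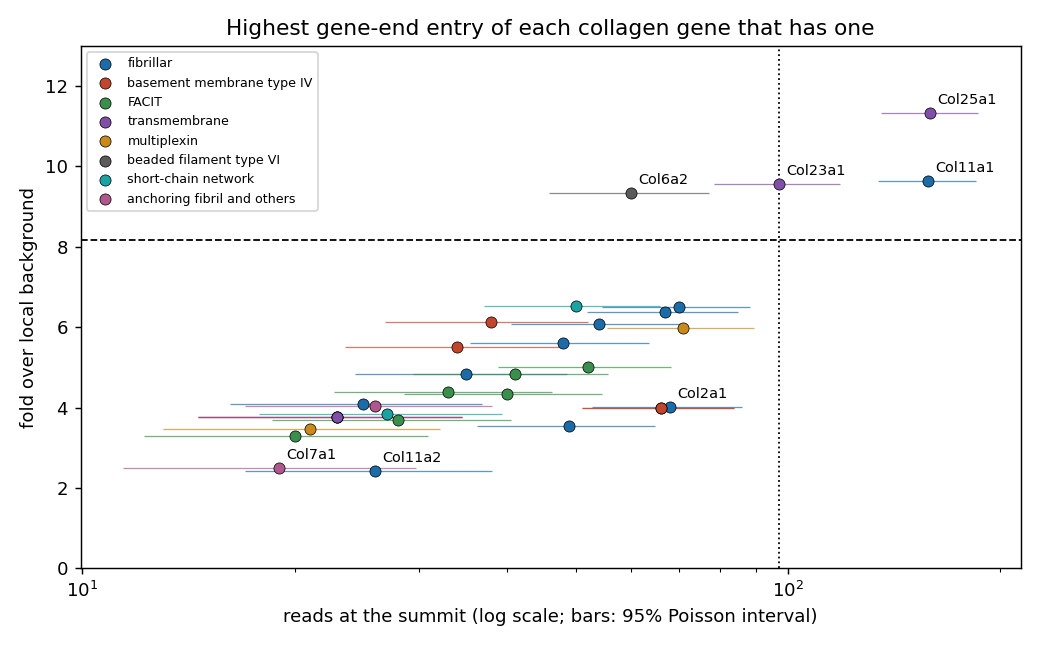
Fold over local background (y axis) against reads at the summit (x axis, log scale, with 95% Poisson intervals as bars) for the highest gene-end entry of the 32 collagen genes that have one, coloured by class; the dashed and dotted lines are the all-gene medians of fold (8.17) and reads (97). Col25a1 and Col11a1 stand at the upper right with 159 and 158 reads, and 28 of the 32 points lie below the dashed line.

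The transmembrane collagens had the highest median gene-end fold, 9.56 over 3 genes, of the classes with more than 1 gene-end entry. Col25a1 had the highest gene-end fold of all collagens, 11.3-fold with 159 reads (interval 135 to 186) over a background of 13.1, in an interval at chr3:130180345-130181560 that covers the whole of the promoter printed above, with its summit at position -119 from the start. The gene spans 420 kb, and all of its 28 entries lay inside it. The 26 entries further than 1 kb from either end had 11 to 55 reads (median 18), and 7 of them had 40 reads or more. The strongest of these, 7.50-fold with 55 reads, lay 314 kb from the 5′ end at chr3:130494087-130495057. A group of 3 summits at chr3:130242440-130243624, 62.2 to 62.8 kb into the gene, reached 6.98-fold and 50 reads.

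Col23a1, the chain of another transmembrane collagen, had a start entry of 9.56-fold with 97 reads (78.7 to 118) at chr11:51289450-51290386, its summit at position -111. It too had no entry in its flanks: all 19 lay inside its 294 kb. The highest of them away from the start, 8.75-fold with 61 reads, was 170 kb from the 5′ end. Col13a1, whose product acts at the neuromuscular junction, had 18 entries but a weak start of 3.64-fold with 34 reads, and its highest gene-end fold, 3.77 with 23 reads, was at the 3′ end. Col17a1, a component of the hemidesmosomes of epithelia, had 6 entries, none at an end and none above 21 reads. The order of gene-end reads was thus Col25a1, Col23a1 and Col13a1, with intervals that did not overlap.

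Among the 11 fibrillar genes, 10 had a gene-end entry, with a median fold of 5.21 (range 2.42 to 9.64) and a median of 51.5 reads. Col11a1, a minor chain that sets fibril diameter in cartilage, stood at the top of the class with 9.64-fold and 158 reads (134 to 185) at chr3:114029943-114031189, its summit at position -84. Its count was within counting error of that of Col25a1. The next fibrillar gene ends were lower. Col5a1, whose chain starts the assembly of collagen fibrils, had 6.49-fold with 70 reads (54.6 to 88.4), and Col5a3, a related chain, had 6.39-fold with 67 reads (51.9 to 85.1). The 2 chains of type I collagen, the main protein of bone, skin and tendon, were Col1a1 at 6.07-fold with 54 reads (40.6 to 70.5) and Col1a2 at 4.82-fold with 35 reads (24.4 to 48.7). Their intervals overlapped.

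Col1a2 had the most entries of any collagen gene, 30, of which 27 were in its flanks, 28.4% of all collagen flank entries. They lay on both sides, 14 upstream and 13 downstream. The strongest was 49.2 kb upstream, at chr6:4456193-4457057, with 7.33-fold and 49 reads (36.3 to 64.8), an interval that overlapped that of the 35 reads at the gene's own start. Of the downstream entries, 5 were summits of 1 broad interval at chr6:4553368-4554928 with 19 to 31 reads. Which gene these flank entries act on was not tested. Col1a1 had 5 entries in all, and Col3a1, the chain of type III collagen in skin and vessels, had 1 entry, 6.60-fold with 41 reads at 2.47 kb inside the gene, and none at an end.

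The cartilage chain Col2a1 showed a raised background at each of its entries. Their summits ran from chr15:97989744 to chr15:98004625, and the background in the rest of the gene is not known here. All of its 11 entries were inside its 29.1 kb, with local backgrounds of 16.2 to 18.3 reads against 5.37 genome-wide, and 28 to 102 reads at the summits. Its highest entry was 14.4 kb from the nearer end at chr15:97990132-97990532, with 102 reads (83.2 to 124) but 5.40-fold, and its gene-end entry had 68 reads and 4.0-fold. Dividing by that background set Col2a1 below the class median in fold and above it in reads. Col11a2, its partner in cartilage fibrils, had the lowest gene-end fold of the family, 2.42 with 26 reads over a background of 10.1.

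Of the remaining fibrillar genes, Col24a1 and Col27a1 had their strongest entries elsewhere than within 1 kb of the table's gene end. Col24a1 had 18 entries, a start of 5.60-fold with 48 reads, and a stronger entry 49.4 kb upstream, 8.17-fold with 60 reads (45.8 to 77.2) at chr3:145242673-145243623. Col27a1 had 3.54-fold with 49 reads at the gene end and 6.91-fold with 98 reads (79.6 to 119) at the promoter table's start, which lies 1.46 kb inside that end. Its gene-end fold therefore understates its start. Col5a2 had 5 entries, of which the strongest was at the gene end, with 4.08-fold and 25 reads.

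Type IV collagen genes lie in pairs, and the 6 chains of basement membranes all had gene-end entries, with a median fold of 3.98 (3.77 to 6.13). Col4a1 and Col4a2 encode the chains found in nearly every basement membrane. Their spans overlap by 0.084 kb, and both ends fell in 1 interval, chr8:11312236-11313225, with 3.98-fold and 66 reads (51.0 to 84.0) over a raised background of 15.8. This interval covers both promoters printed above in full. A stronger entry lay 4.10 kb inside Col4a1 at chr8:11308466-11309115, with 5.51-fold and 86 reads (68.8 to 106). Of the 25 entries counted for either gene, 8 were counted for both.

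Col4a4 and Col4a3, chains of the basement membranes of kidney glomerulus, inner ear and lung, overlap by 0.113 kb and also shared their gene-end interval, at chr1:82586681-82587578 with 3.77-fold and 23 reads (14.6 to 34.5). The strongest entry of the pair was far from it. It lay 26.2 kb inside Col4a4 from its 3′ end, at chr1:82474290-82475521, with 8.89-fold and 161 reads (137 to 188), the highest read count of any collagen entry apart from those of a very deep interval beside Col19a1. On the Col4a3 side the highest entry had 8.32-fold with 60 reads, 58.3 kb from the gene's nearer end.

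Col4a6 and Col4a5, the X-linked chains, did not share an entry. Their facing ends are 1.275 kb apart, and each had its own interval, with 5.50-fold and 34 reads at Col4a6 and 6.13-fold and 38 reads (26.9 to 52.2) at Col4a5. Col4a6 had 10 entries, all inside its 309 kb. Col4a5 had 2 entries, both at its start, and none in the rest of its 214 kb. Of the 3 pairs, the pair on chromosome 8 thus had the most reads where its genes meet. The interval of that count lay above that of Col4a4 and Col4a3 but overlapped that of Col4a5. In fold the order differed, as the background was 15.8 reads at this pair and 5.37 at the others. Its 3.98-fold was above the 3.77 of Col4a4 and Col4a3 but below the 5.50 of Col4a6 and the 6.13 of Col4a5.

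**Figure D4:**
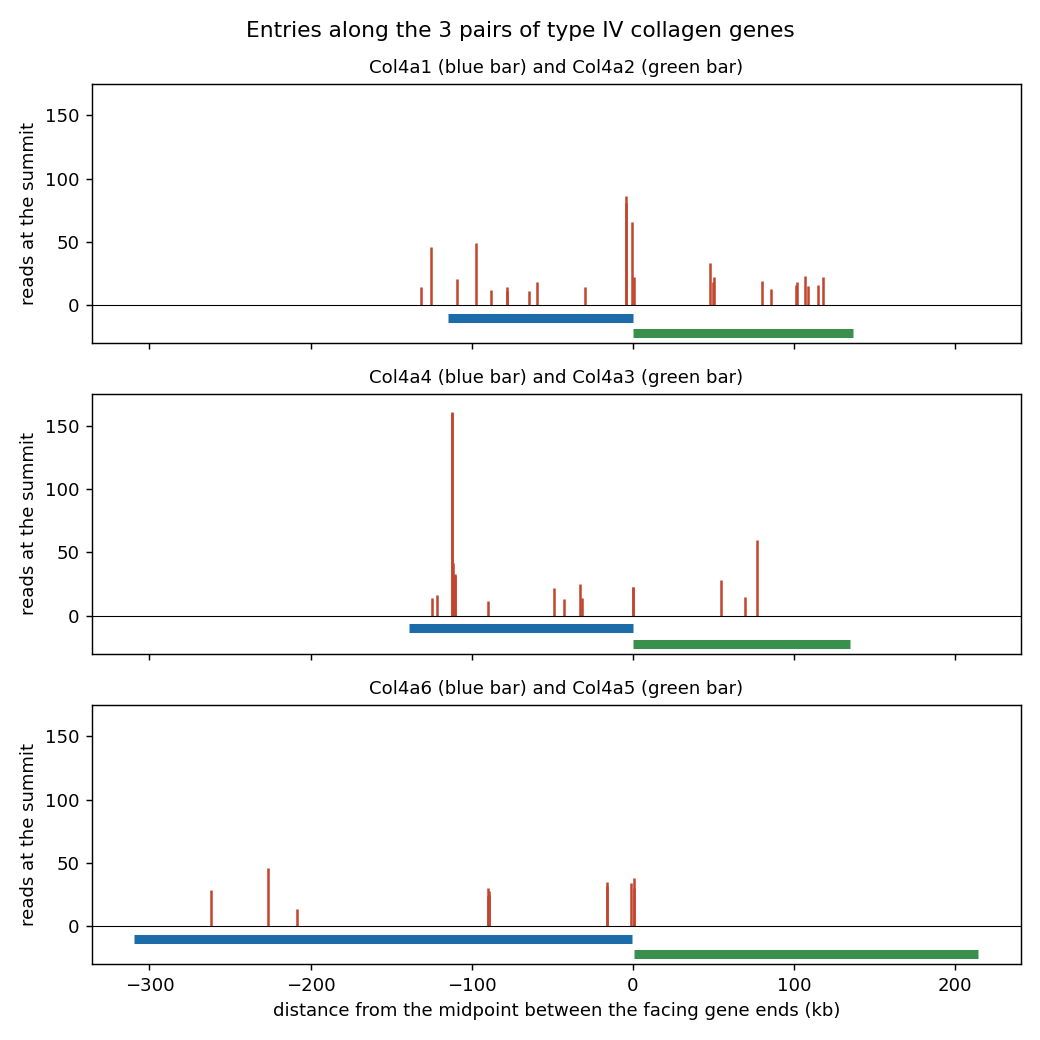
Reads at the summit (y axis) of each entry along the 3 pairs of type IV collagen genes, against distance in kb from the midpoint between the facing gene ends (x axis); blue and green bars under each panel show the spans of the genes. At the midpoint the Col4a1 and Col4a2 pair has 66 reads and the Col4a4 and Col4a3 pair 23, and the tallest bar, 161 reads, lies inside Col4a4.

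FACIT collagens, which decorate fibrils and link them to other matrix, had gene-end entries in 6 of 9 genes at a median of 4.37-fold, all between 3.30 and 5.0. Their highest entries were mostly inside the genes. Col22a1, known from tendon-muscle junctions, had 20 entries and none at an end, yet its entry 117 kb inside the gene, at chr15:72033750-72034707, reached 11.6-fold with 111 reads (91.3 to 134). That was the highest fold of any collagen entry. Col14a1, a chain of dense connective tissue, had 3.68-fold with 28 reads at its end and 9.40-fold with 133 reads (111 to 158) at chr15:55440687-55441601, 79.8 kb inside. Col12a1, a related chain, had 3.30-fold with 20 reads at its end of lower coordinate. It had 9.24-fold with 85 reads (67.9 to 105) at chr9:79689523-79690793, 31.1 kb inside. A further entry, 5.69-fold with 76 reads, lay 2.46 kb inside its end of higher coordinate, beyond the 1 kb window. Which of these ends holds the start is not known here.

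The other FACIT genes were lower. Col19a1, which is expressed in some neurons of the brain, had 18 entries, all inside its 330 kb. The interval over its start, chr1:24586370-24587675, held 3 summits, of which the highest, 8.11-fold with 71 reads (55.5 to 89.6), lay 1.24 kb inside the table's end and so fell just outside the 1 kb window, leaving 4.82-fold with 41 reads as the gene-end value. Upstream of that start, at chr1:24611609-24616113, lies the deep interval kept apart from the collagen values, with 15 summits of 7675 to 10129 reads over a background of 3050 to 3051. Col9a1, a cartilage chain whose gene ends 4.945 kb from the 3′ end of Col19a1, had 6 entries, none at an end, with a maximum of 8.96-fold and 65 reads at 12.5 kb inside. Col9a2 had 5.0-fold with 52 reads at its end, Col9a3 4.35-fold with 40 reads, and Col16a1 4.38-fold with 33 reads. Col20a1 had 6 entries with at most 5.59-fold and 40 reads, none of them at an end.

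The multiplexins, which sit at basement membranes and release anti-angiogenic fragments, were uneven. Col18a1, the precursor of endostatin, had 28 entries, 22 of them inside its 114 kb, and a start of 5.99-fold with 71 reads (55.5 to 89.6) at chr10:77165271-77166725. That interval overlapped the upstream of its 2 promoters in the RefSeq table. The other promoter had no interval over it. A flank entry 24.8 kb upstream had 6.91-fold with 49 reads, and an inside entry at 15.2 kb had 5.24-fold with 51 reads. Col15a1 had 7 entries and 3.46-fold with 21 reads (13 to 32.1) at its end, an interval that lay below that of Col18a1.

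Type VI collagen genes, whose chains form the beaded microfibrils around many cells, were the class with the fewest entries per gene and the smallest share of accessible ends. They had 1 to 5 entries each (median 3.5, 19 in all) and 2.53 entries inside per 100 kb, the lowest density of the 8 classes. Col6a2 was the only one with a gene-end entry, 9.35-fold with 60 reads (45.8 to 77.2) at chr10:76623107-76623607, and this was its only entry. Its partner chain Col6a1, 85.2 kb away, had 3 entries, all upstream of the gene, with a maximum of 5.30-fold and 39 reads at 9.18 kb. Col6a3, the third main chain, had 8.33-fold with 52 reads at 9.02 kb from its nearer end and 7.81-fold with 56 reads at 22.6 kb beyond its 3′ end. Col6a4, Col6a5 and Col6a6, which lie side by side on chromosome 9, held 9 inside entries in 352 kb, 2.56 per 100 kb, with at most 42 reads.

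The short-chain network collagens and the rest of the family completed the range. Col8a2, a chain of the corneal Descemet membrane, had a start of 6.54-fold with 50 reads (37.1 to 65.9), and Col8a1 3.83-fold with 27 reads. Col10a1 had a single entry, 2.2-fold with 13 reads at 21.7 kb, which lay inside the neighbouring gene Nt5dc1. Col26a1 had 16 entries, with 4.05-fold and 26 reads at its end and 10.7-fold and 86 reads (68.8 to 106) at chr5:136758432-136758731, 16.9 kb inside. Col28a1, known from peripheral nerve, had 15 entries and none at an end. Its strongest had 8.95-fold and 56 reads, 26.0 kb away in the flank. Col7a1, the anchoring fibril of skin, had 2 entries, with 2.51-fold and 19 reads at its end.

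Strong entries of collagen genes were mostly away from gene ends. Of 18 entries of 8-fold or more, which fell in 15 genes, 5 were at a gene end and 13 elsewhere, while 53.4% of all such entries in the list were at a gene end. The 13 include the Col19a1 summit 1.24 kb inside its end, in the interval over its start. They also include 8.89- and 8.84-fold summits of the same Col4a4 interval. At any fold, 59 of 443 collagen entries and 25293 of 137849 entries of the list were at a gene end. Entries of 8-fold or more made up 4.06% of collagen entries and 10.1% of all entries. Along genes of known strand, 31.6% of 272 inside entries were in the 5′ part of the gene, the first of 5 equal parts (exact binomial interval 26.1 to 37.5) and 21.3% in the last part (16.6 to 26.7). Other genes with spans of 35.5 to 144.5 kb had 39.0% and 15.9% there, and all genes had 37.7% and 16.4%. The 272 entries come from collagen genes of any span, many of them longer, so these sets are not matched in length.

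Base composition differed in its medians between promoters with and without an overlapping interval, with ranges that overlapped. An interval overlapped 24 of 38 collagen promoters (63.2%, from 35 genes), against 62.1% of 21263 promoters of all protein-coding genes. The ratio of observed to expected CpG, which is high in CpG islands, had a median of 0.574 in the overlapped collagen promoters (0.172 to 0.902) and 0.180 in the others (0 to 0.471). In all genes these medians were 0.770 and 0.184. The overlapped collagen promoters were thus poorer in CpG than overlapped promoters at large, and the unlisted ones were alike. Col11a1, with 158 reads, had a ratio of only 0.332, against 0.860 for Col25a1, and the Col3a1 promoter held 0 CpG.

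The GC box GGGCGG matched 23 of 38 collagen promoters (60.5%), against 46.2% of all promoters, with 19 of the 24 overlapped (79.2%) and 4 of the 14 others (28.6%). In all genes it matched 67.9% of overlapped promoters and 10.7% of the rest. CCAAT matched 13 collagen promoters (34.2%, all promoters 38.2%), TATAAA 5 (13.2%, all 12.6%) and TAATTA 2 (5.26%, all 4.53%). The palindromic EBF site matched 0, beside 0.959% of all promoters. ACAAAG matched 5 collagen promoters (13.2%, all 16.8%), all of them among the 14 without an interval, as in the Col3a1 sequence above. In all genes it matched 23.7% of promoters without an interval and 12.6% of overlapped ones. A match is a description of the letters in the window and no evidence of binding.

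**Figure D5:**
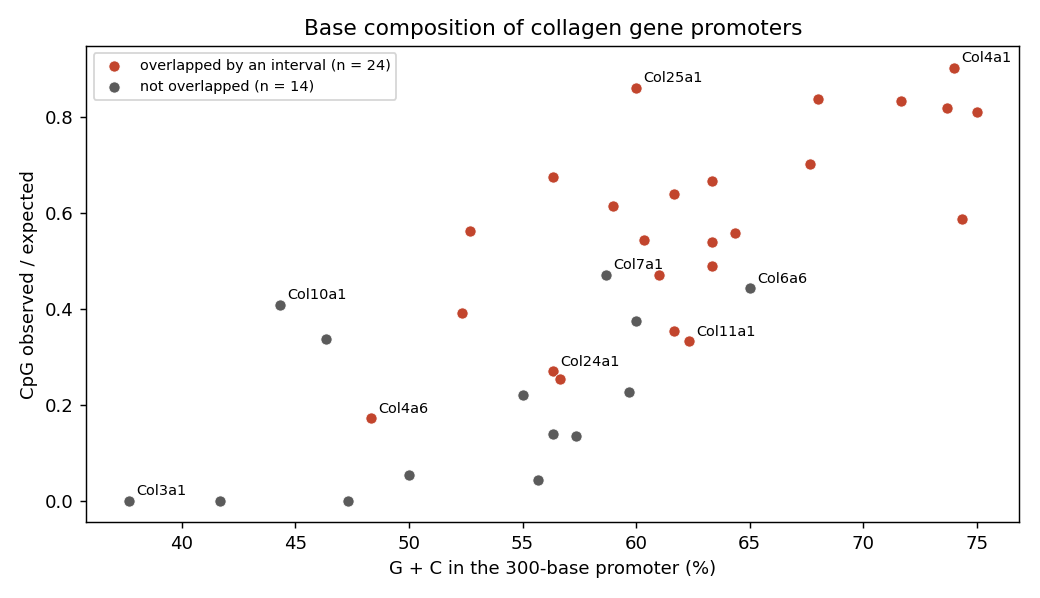
Ratio of observed to expected CpG (y axis) against the G + C content in percent (x axis) of 38 collagen promoters of 300 bases, in red where an accessible interval overlapped them (24) and grey where none did (14). No grey point lies above 0.471, while the red points run from 0.172 to 0.902.

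The genes that make, cut, bind and degrade collagen are given as a setting, in lists chosen by function. Of 20 genes for collagen synthesis and folding, 17 had a gene-end entry, with a median fold of 9.43, above the all-gene 8.17. They include P3h2, a prolyl 3-hydroxylase, with 16 entries and 10.3-fold with 114 reads, and Creb3l1 with 7.89-fold and 70 reads. The 3 without a gene-end entry were Colgalt1, Fkbp10 and Plod2. Processing and cross-linking genes had one in 12 of 13 at a median of 6.37-fold. Among them were the procollagen peptidase gene Adamts3 with 10.2-fold and 186 reads, Tll1 with 8.36-fold and Adamts2 with 6.61-fold. Collagen receptors had one in 6 of 9 at 6.90-fold, with Itga1, an integrin chain, at 8.10-fold, Itga2 at 7.67-fold and Ddr1 at 6.13-fold. None was found at Ddr2, Gp6 or Lair1. Basement membrane partners had one in 14 of 15 at 7.27-fold, and none at Lamb3. The nidogen gene Nid2 had 11.2-fold and 137 reads, Lama2 6.75-fold and 42 reads, and Lamb1 3.46-fold and 21 reads. Collagen-degrading enzymes and their inhibitors had one in 7 of 11 at 6.90-fold. The synthesis list was therefore the only one of the 5 with a median above that of all genes, and the median of the collagen genes was below that of each list.

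Markers of the labelled cells and of other cells near the spinal cord were read in the same way. Motor neuron markers had a gene-end entry in 7 of 8 genes at a median of 5.10-fold, below the all-gene 8.17, with 10.9-fold and 244 reads at Isl1, 3.08-fold and 34 reads at Chat, and none at Isl2. Mesenchyme and fibroblast markers had one in 7 of 10 (median 4.20-fold), cartilage and sclerotome markers in 7 of 8 (4.44-fold, with 31 entries at Sox9), and endothelium and pericyte markers in 6 of 8 (3.93-fold). Notochord and floor plate markers had one in 5 of 5 (2.45-fold), neural crest and Schwann markers in 6 of 6 (4.54-fold) and epidermis markers in 2 of 5, with none at Krt5, Krt14 or Trp63. The medians of these 6 non-neuronal lists ran from 2.45- to 7.43-fold, on both sides of the collagen median of 4.37. The highest, 7.43, was that of the epidermis list and rests on only 2 genes, Epcam with 83 reads and Grhl3 with 41. The medians of the other non-neuronal lists ran from 2.45- to 4.54-fold, also on both sides of 4.37. An entry at a gene end is not expression, and the part of other cell types in the collagen entries was not tested.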

How the data were processed

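ATAC-seq libraries of 2 replicates of sorted Hb9::GFP spinal motor neurons at embryonic day 10.5 were amplified for 8 to 9 cycles and sequenced as 75-nt paired reads, per the labels' protocols. The build mm10, the caller MACS2 2.2.7.1 and the tools BWA 0.7.1.7, SAMtools 1.7.2, Trim Galore and cutadapt 0.6.2 come from the submitters' processing notes. Settings, duplicate handling, any Tn5 shift and the peak filter were not given in the sources used here. The authors deposited 1 filtered narrowPeak list for both replicates together, with 138387 entries (137849 on chromosomes 1 to 19, X and Y). It holds, as the authors' caller gave them, a fold (a ratio over local background), −log10 p-values and −log10 q-values, and a score that was not used. The library totals are unknown, and the pileups limit the precision.

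The reads at each summit were recovered as the Poisson pileup that gives both the deposited fold and −log10 p. Of the pileups, 99.96% were whole within 0.01. Entries were assigned by summit, with Python 3.11.15, numpy 2.4.6, pandas 2.3.3 and scipy 1.17.1, to RefSeq gene spans. A gene-end entry has its summit within 1 kb of either end of the span. The table of spans gives no strand, so starts come from the RefSeq promoter table, which matched 35 of the 44 genes. The 9 others (Col1a1, Col2a1, Col4a3, Col5a2, Col9a3, Col12a1, Col14a1, Col22a1 and Col26a1) have no known start or strand here. Recovery and assignment were tested on simulated data. Intervals are exact Poisson or binomial ones at 95% and cover counting error only. The very deep interval near Col19a1 was kept out of the collagen values and of the values per gene. Values over all entries of the list include its 15 summits.

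With 1 pooled list and 1 group, no test was made, and counts and medians stand beside those of all 21887 genes. Full values are given for the 10 genes with most entries, the 5 highest and 5 lowest gene-end folds and genes whose ends lie within 10 kb of each other. Other collagen genes were described after their values were seen. From each pathway and marker list the genes named are among the 3 with most entries and those without a gene-end entry. The collagen genes and the lists were chosen with earlier results of these data known. Alternatives changed the q-value limit, the entries per interval, the gene-end window, the reach, the background limit and the way the density was averaged.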

Additional observations from a re-analysis of the deposited data

Results flagged for a closer look

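A very deep interval lies next to Col19a1, at chr1:24611609-24616113 (mm10), and stands apart because it was kept out of the collagen values and yet carries more reads than any collagen entry. Its 15 summits are 24.1 to 27.9 kb beyond the gene's end, which would assign them to Col19a1, and had 7675 to 10129 reads (median 8542). Its local background was 3050 to 3051 reads, so the folds were only 2.52 to 3.32. The highest background of any other collagen entry was 18.3 reads. Whether reads from other copies of this sequence add to these counts was not tested. The counts are therefore not read as the accessibility of a single site. With these summits Col19a1 would have 33 entries in place of 18.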

How the results depend on the processing

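No paired analysis was possible because the peaks were called on both replicates together and no value belongs to a single replicate, and for the same reason no replicate could be left out. Over 11 settings, 41 alternative values were computed for the 6 summary values, and 38 kept within 1.5 times the reported count or within the interval of the reported value. That rule judges the collagen value only. The order of collagen and all-gene densities turned when the median of per-gene densities was taken (6.24 and 5.70). The 3 that moved came from keeping only entries above the median −log10 q, which by construction leaves fewer entries. Collagen genes then held 186 entries in place of 443, a median of 4.5 per gene (2 for all genes) and 2.70 entries inside per 100 kb (3.72 for all genes). The number of collagen genes with a gene-end entry ran from 28 (with the narrower window) to 33 (with the wider one). The median gene-end fold ran from 4.35 to 4.82, with the all-gene median between 8.13 and 8.52. Placing an interval rather than its summit within 1 kb of a gene end, and keeping the deep interval, were chosen after seeing the data. Depth limits the weaker sites, since an entry of 11 reads is the least the list holds and 20.1% of collagen entries had q of 0.05 or more.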

Other observations

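The Col25a1 promoter holds a stretch of 16 bases, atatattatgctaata, at 2 places, starting at positions -161 and -75 from the start. The summit of the start's interval, at -119, lies between them. It was noticed on reading the sequence, so its count is a description. An exact repeat of 16 bases or more occurs in 367 of 21263 promoters (1.73%) and in 2 of the 38 collagen promoters, those of Col25a1 and Col9a1. The octamer within it, ATGCTAAT, was matched on either strand in 176 promoters (0.828%), and 2 or more matches were found in 3 promoters (0.0141%), of which 1 was the collagen promoter of Col25a1.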
